A study of Arabidopsis thaliana with 12 samples.

Results

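AK102323 is a rice full-length cDNA clone, and the Arabidopsis thaliana line named after it here carries that clone as a transgene (the labels call the plants re-transformants). The line was set against the wild type Col-0 on 2 arrays with 2 dyes, chosen by their titles from the 12 arrays of the series. The other 10 arrays hold 5 further lines, AK069096, AK073112, AK073675, AK065297 and AK073210, each carrying another rice clone and each with 2 arrays against Col-0. All RNA came from aerial parts of plants kept at 22 °C in long days (16 h light, 8 h dark), and each labelling started from 1 µg of total RNA. The labels give the transformant's RNA as Cy3 and the Col-0 RNA as Cy5 on every array, so no array swaps the dyes. A difference between the dyes at a probe was therefore not separated from a difference between the transformant and the wild type. The sources used here do not say what AK102323 encodes, which promoter drives it, how many plants or independent transformants were pooled, or how old the plants were. Nothing says that the 2 arrays came from separate plants, so p-values measure the spread between arrays.

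Each value is the deposited log ratio of the 2 dyes at 1 probe, put on the log2 scale. On this scale 1 stands for a factor of 2 between the dyes. The direction of the ratio is not settled by the labels. The scanner program's usual order of dyes would put Col-0 over the transformant, while the titles' word order would put the transformant over Col-0. Each gene is therefore described only by its side of the deposited ratio, positive or negative, since neither side can be read as more RNA in the transformant. Only ratios are held, so no level of a gene can be read, and the origin of the RNA from aerial parts could not be checked by level.

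As background, flavonoid synthesis in shoots starts from phenylalanine and leads through a common series of intermediates to flavonols and to the red and purple anthocyanins. The reductase DFR opens the anthocyanin branch, and glycosyl and acyl transferases then add the sugars and acids that make the pigment soluble and stable in the vacuole. The pathway is known to answer to light, cold, sugar and nutrient supply, and the bZIP factors HY5 and its homolog HYH are among its activators in Arabidopsis.

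In AK102323, 870 of 21494 probes (4.05%) had a mean ratio that differed from 0 (limma, adjusted p under 0.05), 427 on the positive side (1.99%) and 443 on the negative side (2.06%). The 2 sides were nearly equal in number and in size, with 126 positive probes (0.586%) and 136 negative probes (0.633%) among those at a log2 of at least 1 from 0. All 870 had both AK102323 arrays on the same side, which the choice by the mean of the same arrays favours. The part of the dyes, or of the shared wild type RNA, in these means was not tested. The 870 are therefore not a count of differences in expression from the wild type. By annotation, 47 of 1317 probes with a gene symbol passed (3.57%), 300 of 8015 with only a locus code (3.74%), and 523 of 12122 with no listed gene (4.31%). The count rests on a spread shared with the other lines. It was 3097 without either AK073112 array, 548 without either AK065297 array, 19 without AK102323 replicate 1 and 96 without AK102323 replicate 2, where the remaining array is assumed to vary like the other lines. Of the 47 probes named by rank in this comparison or in that with the other lines, 3 kept their call without replicate 1 and 9 without replicate 2, so nearly every call below needs both arrays.

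By the typical gap between arrays AK102323 was the closest pair of the 6 lines, though not by correlation or share on the same side. Their median absolute difference was 0.092, against 0.11 to 0.362 in the other 5 lines, with AK065297 the closest and AK073112 the farthest. Across probes the arrays correlated with r = 0.644 and a rank correlation of 0.693, a description over 21494 probes that share 2 hybridisations, against r = 0.352 to 0.805 and rank correlations of 0.306 to 0.782 in the other lines, highest in AK069096. Of 19214 probes away from 0 on both arrays, 15524 lay on the same side (80.8%), against 59.2% to 83.3% in the other lines. Of the 578 probes with a mean at least 1 from 0, 569 had both arrays on 1 side (98.4%), a share that the choice by the mean of the same arrays raises. Both arrays were at 1 or above for 147 probes and at -1 or below for 171.

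Over all 443 negative probes past the threshold the arrays had medians of -0.75 on replicate 1 and -0.74 on replicate 2, with replicate 1 farther from 0 in 56.9%. The far negative probes differed more. Among the 136 negative probes at a mean of -1 or below, replicate 1 lay farther from 0 in 106 (77.9%), with medians of -1.42 on replicate 1 and -1.24 on replicate 2. Among the 126 positive probes at a mean of at least 1, replicate 1 lay farther out in 57 (45.2%), with medians of 1.3 and 1.37. Over all 427 positive probes past the threshold replicate 1 lay farther out in 47.3%.

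**Figure D1:**
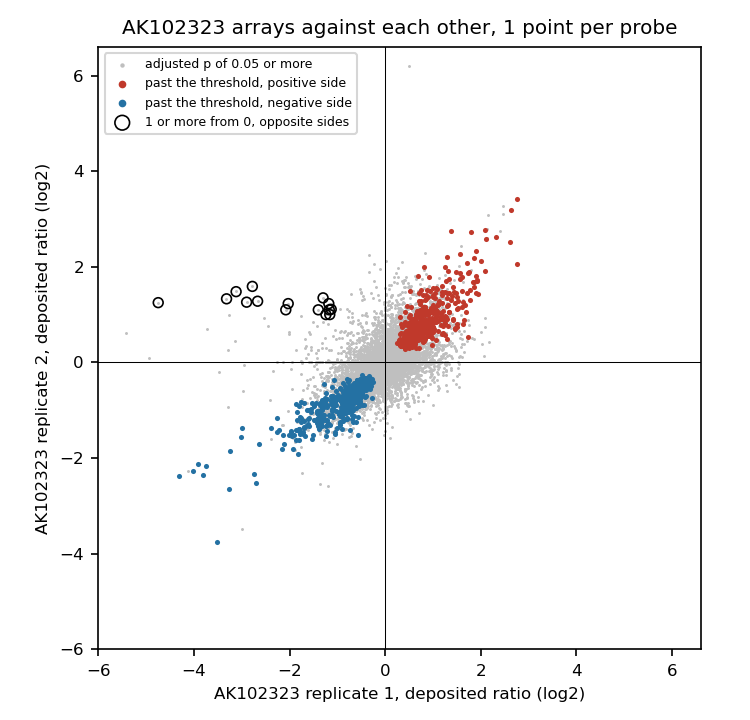
Deposited log2 ratio of each probe on AK102323 replicate 1 (x axis) and replicate 2 (y axis), with the 427 probes past the threshold on the positive side in red, the 443 on the negative side in blue and the rest in grey. Open circles mark the 15 probes that lie at least 1 from 0 on opposite sides, all of them negative on replicate 1 and positive on replicate 2.

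Some probes went against this agreement. The arrays differed by at least 1 at 497 probes, against 656 to 2430 in the other lines. Replicate 1 was lower at 296 of them and higher at 201. At 15 probes, against 3 to 43 in the other lines, the arrays lay at least 1 from 0 on opposite sides, and at all 15 replicate 1 was negative and replicate 2 positive. The 4 annotated probes with the widest gap were ATA27, a gene first found in anthers, SHT, the spermidine acyltransferase of the tapetum, and the loci AT3G13180 and AT2G03740. ATA27 had -4.75 on replicate 1 and 1.25 on replicate 2, and its means in the other lines ran from -2.21 to 1.93. SHT had -3.72 and 0.71, so it is not among the 15. AT3G13180 had -3.12 and 1.48, and AT2G03740 had -2.78 and 1.59. None of the 4 means differed from 0 (adjusted p = 0.535 to 0.873).

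Other genes of anthers and pollen split in the same direction. SWEET8, a sugar transporter gene needed for pollen wall formation, had -1.16 and 1.0 on replicates 1 and 2, and the anther gene ATA20 had -1.67 and 0.49. The rest of the pollen and anther list did not share the split: the pectin methylesterase genes of pollen had 0.47 and 0.0 (VGD1) and -0.75 and -1.22 (VGDH1), the pollen tubulin gene TUA1 had 0.01 and 0.08, and the locus AT5G07230 had 0.08 and -0.06. None of the 6 measured members of the list passed, and their median was -0.37 on replicate 1 and 0.04 on replicate 2, beside 0.0 over all probes on both arrays. The part of floral tissue in these differences was not tested.

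Among probes past the threshold, the positive side was led by genes of anthocyanin synthesis. UF3GT, the transferase that adds xylose to anthocyanins, had 2.75 and 3.42 on the 2 AK102323 arrays, a mean of 3.09 ± 0.52 (SE of the fit, n = 2, adjusted p = 0.021). DFR had 2.63 and 3.19, a mean of 2.91 ± 0.62 (adjusted p = 0.0455). UGT78D2, which glucosylates flavonols and anthocyanidins, had 1.74 and 1.86, a mean of 1.8 ± 0.37 (adjusted p = 0.0396). On each of these genes the arrays differed by 0.12 to 0.67 and both lay well away from 0. UF3GT kept its call when any array of another line was left out, while DFR and UGT78D2 lost theirs without an array of any of the lines AK069096, AK073675, AK065297 or AK073210 (adjusted p = 0.0672 to 0.0831 for DFR and 0.0635 to 0.0729 for UGT78D2). Their means stayed the same there, and only the shared spread moved.

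Of the 8 probes of the flavonoid and anthocyanin list, 4 passed on the positive side and 0 on the negative side, beside 1.99% and 2.06% of all probes. The fourth was a probe of the locus AT4G14090 with 2.1 and 2.59, a mean of 2.35 ± 0.37 (adjusted p = 0.0169). A second probe of the same locus had -0.07 and -0.02, so the probes of this locus disagree. AT5MAT, the anthocyanin malonyltransferase gene, had 2.15 and 3.09, a mean of 2.62 ± 0.62 that missed the threshold (adjusted p = 0.0608). BAN, the anthocyanidin reductase gene of the seed coat branch, had -0.48 and -0.97, and UGT78D1, a flavonol rhamnosyltransferase gene, had -0.04 and -0.11. The list's median was 2.07, beside 0.0 over all probes. Earlier results of these data had already shown DFR, UF3GT, AT5MAT, UGT78D2 and the first AT4G14090 probe on the positive side, so the count is no independent evidence.

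The other lines were also hybridised against Col-0, so their values are no independent evidence of a side, and they had positive means for the same genes. UF3GT had 3.09 in AK102323 and 2.72 to 5.4 in the other 5 lines. DFR had 2.91 in AK102323 and 2.34 to 6.34 in the others, and UGT78D2 had 1.8 in AK102323 and 1.15 to 2.6 in the others. AK102323 thus lay inside the range of the other lines on each, and its difference from their mean did not pass (differences of -0.69 ± 0.57, -0.92 ± 0.68 and -0.07 ± 0.41, adjusted p = 0.747, 0.706 and 0.975).

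Among regulators with a symbol, HYH, the HY5 homolog of light signalling, stood farthest from 0. It had 1.89 and 1.46 on the AK102323 arrays, a mean of 1.67 ± 0.18 (adjusted p = 0.00566), and kept its call without replicate 2 (adjusted p = 0.0441) but not without replicate 1. Its mean lay above those of all 5 other lines, which ran from 0.78 to 1.43, yet the difference of 0.58 ± 0.2 did not pass (adjusted p = 0.336). AFR, an F-box protein gene of far-red light signalling, had 0.86 and 0.63, a mean of 0.75 (adjusted p = 0.0225). STZ, a zinc finger repressor gene of rapid stress responses, had 0.48 and 0.76, a mean of 0.62 (adjusted p = 0.0232).

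Further transcription factor genes on the positive side included NAI1, the basic helix-loop-helix regulator of the endoplasmic reticulum bodies that hold beta-glucosidases. It had 1.52 and 1.14, a mean of 1.33 ± 0.27 (adjusted p = 0.038), a call that was lost without either AK069096 or either AK065297 array. Its 6 companions on the list of these bodies did not pass: BGLU21 had a mean of -0.61, PYK10, the main glucosidase of the bodies, one of -0.44, and NAI2, a gene for a structural protein of the bodies, one of -0.15. LBD16, an auxin-responsive factor of lateral root initiation, had 0.88 and 1.51, a mean of 1.2 ± 0.19 (adjusted p = 0.0174). The other lines had LBD16 between -0.27 and 0.75, and the difference of 1.09 ± 0.21 did not pass (adjusted p = 0.122).

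The bZIP gene bZIP43 had 0.86 and 1.32 (mean 1.09), with adjusted p = 0.0382, a call lost without an array of AK069096, AK073675 or AK065297 (adjusted p = 0.0562 to 0.0673). The MADS-box gene AGL28 had 1.11 and 0.86 (mean 0.98), and came near to a difference from the other lines, which had -0.59 to 0.23 (difference 1.03 ± 0.13, adjusted p = 0.0523). The linker histone gene HIS1-3, known from drought, had 0.54 and 0.9, a mean of 0.72 (adjusted p = 0.0121), below the 1.03 to 2.03 of the other 5 lines. Its difference of -0.68 ± 0.11 did not pass (adjusted p = 0.0868).

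Genes of the cell wall and membrane were found on the positive side as well. XTH29, of the enzyme family that cuts and rejoins xyloglucan, had 1.26 and 1.99, a mean of 1.62 ± 0.25 (adjusted p = 0.0165), and the other lines had 0.26 to 0.84. IRX15-L, which takes part in xylan deposition in secondary walls, had 0.76 and 0.89, a mean of 0.83 ± 0.11 (adjusted p = 0.01), and the others had -0.16 to 0.74. The tetraspanin gene TET9 had 1.49 and 0.73 (mean 1.11), and ASPGB1, an asparaginase gene that releases ammonia from asparagine, had 0.97 and 1.14 (mean 1.06 ± 0.11, adjusted p = 0.00535). On TET9 replicate 1 was about as far above replicate 2 as replicate 2 was above 0, and its call was lost without an array of AK069096, AK073675 or AK065297 (adjusted p = 0.0641 to 0.0656). The difference from the other lines did not pass for XTH29, IRX15-L, TET9 or ASPGB1 (adjusted p = 0.179, 0.113, 0.326 and 0.267).

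The remaining genes with a symbol had smaller positive ratios. GR1, a glutathione reductase gene, had 0.55 and 0.56 (mean 0.56 ± 0.07, adjusted p = 0.00777). The glutathione transferase gene GSTU22 had 0.63 and 0.72, AOR, whose enzyme reduces reactive carbonyls in chloroplasts, had 0.69 and 0.53, the sulfurtransferase gene STR18 had 0.54 and 0.73, and the cytochrome c gene CYTC-2 had 0.49 and 0.58. The arrays agreed to within 0.2 on each of these 5 genes. LHCB4.3, a minor antenna protein gene of photosystem II, had 0.42 and 0.6. The remaining positive genes with a symbol were CTF2B, the floral repressor family gene ATC, bHLH34, the peptide receptor gene PSY1R and PCME, a prenylcysteine methylesterase gene, with means of 0.36 to 0.53.

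**Figure D2:**
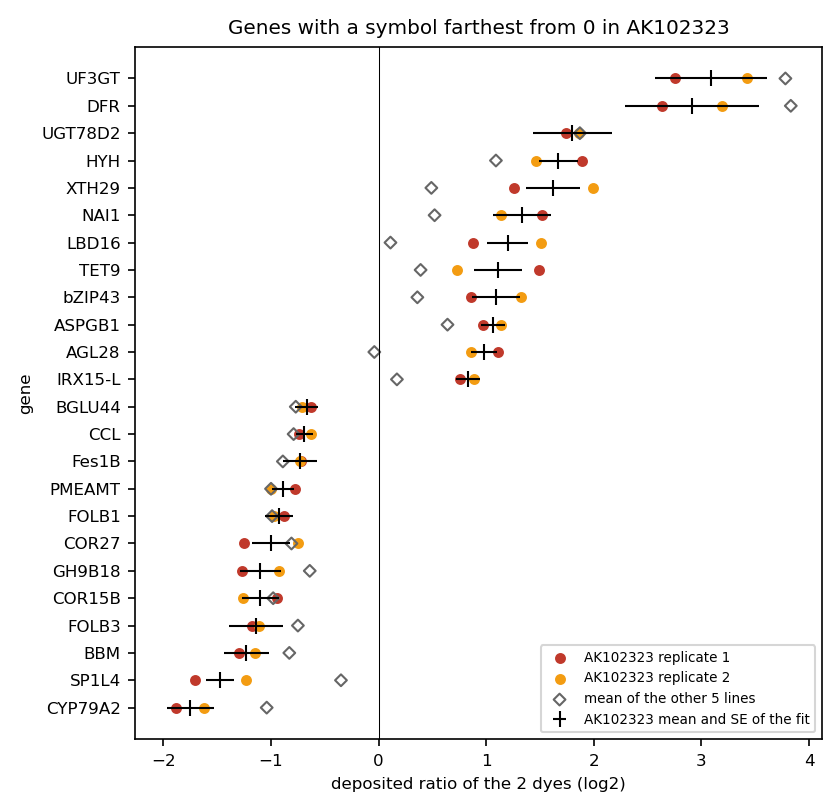
The 12 highest and 12 lowest genes with a symbol past the threshold in AK102323, with the log2 ratio on replicate 1 (red), on replicate 2 (orange), the mean with the SE of the fit (black) and the average over the remaining lines (open diamonds). UF3GT stands highest at 3.09 and CYP79A2 lowest at -1.75, and for DFR and UF3GT the open diamond lies farther out than the AK102323 mean.

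On the negative side the gene with a symbol farthest from 0 was CYP79A2, whose enzyme turns phenylalanine into phenylacetaldoxime, a precursor of benzylglucosinolate. It had -1.88 and -1.62, a mean of -1.75 ± 0.22 (n = 2, adjusted p = 0.00817), below every other line (-1.53 to -0.67), though the difference of -0.71 ± 0.24 did not pass (adjusted p = 0.326). The other measured glucosinolate genes, the thiohydroximate glucosyltransferase gene UGT74B1 and the aminotransferase gene BCAT4, had means of -0.52 and -0.27 (adjusted p = 0.058 and 0.435).

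SP1L4, a member of the SPIRAL1-like family of microtubule proteins, had -1.71 and -1.23, a mean of -1.47 ± 0.13 (adjusted p = 0.00399). AK073210 had -1.28 for it and the 4 further lines -0.4 to 0.19, and the difference from the mean of all 5, -1.12 ± 0.15, stood at an adjusted p of 0.0523. The alpha-tubulin gene TUA5 had -0.39 and -0.44, a mean of -0.41 (adjusted p = 0.0372), and it was the only one of 10 measured tubulin genes to pass, beside 2.06% of all probes on this side, the others having means of -0.44 to 0.06. TRM28, of a family that recruits proteins to microtubules, had -0.55 and -0.42.

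The cold-regulated genes of the list that passed lay on the negative side. COR15B, which encodes a chloroplast protein that protects membranes in frost, had -0.94 and -1.26, a mean of -1.1 ± 0.17 (adjusted p = 0.0174). COR27, which links cold and the clock, had -1.25 and -0.75, a mean of -1.0 ± 0.18 (adjusted p = 0.0283), and lost its call without either AK069096 array (adjusted p = 0.0516). The close paralog COR15A had 0.78 and 0.37 and did not pass (adjusted p = 0.162), nor did COR47, KIN1 and KIN2, with means of -0.14, 0.09 and -0.18. In all, 2 of 6 cold response genes passed, both on the negative side, where 2.06% of all probes passed, and the median was -0.16. The list was chosen with earlier results of these data known, so its count is no independent evidence. COR15A and COR15B are neighbouring paralogs, and their probes lay on opposite sides in the other 5 lines too. There COR15A had means of 0.36 to 1.25 and COR15B means of -1.39 to -0.59. The sources used here do not say how specific each probe is to its gene.

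Of 3 measured genes of dihydroneopterin aldolase, an enzyme of folate synthesis, 2 passed on the negative side, beside 2.06% of all probes. The family was chosen after FOLB1 and FOLB3 had passed, so its count is no evidence. FOLB1 had -0.88 and -0.97, a mean of -0.93 ± 0.13 (adjusted p = 0.0123), and FOLB3 had -1.18 and -1.11, a mean of -1.14 ± 0.25 (adjusted p = 0.0455), a call lost without an array of AK069096, AK073675 or AK073210 (adjusted p = 0.0719 to 0.0788). FOLB2, the other one, had -0.07 and -0.16 (adjusted p = 0.737). PMEAMT, whose enzyme methylates phosphoethanolamine on the way to phosphatidylcholine, had -0.78 and -1.0 (mean -0.89 ± 0.1, adjusted p = 0.00563), and the endoglucanase gene GH9B18 had -1.27 and -0.93 (mean -1.1, adjusted p = 0.0212). For FOLB1, FOLB3, PMEAMT and GH9B18 the other 5 lines were negative too, with means of -1.2 to -0.41.

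BBM, a factor known for inducing embryos, had -1.3 and -1.15, a mean of -1.23 ± 0.21 (adjusted p = 0.0233). CHL, a chloroplast lipocalin gene of stress protection, had -0.68 and -0.66, and CCL, named for its likeness to a cold and clock regulated gene, had -0.74 and -0.63. The beta-glucosidase gene BGLU44 had -0.63 and -0.71 and Fes1B, of the family of exchange factors for heat shock protein, -0.72 and -0.73. The arrays differed by at most 0.15 on each of these 5 genes. Fes1B lost its call without an array of any other line but AK073112 (adjusted p = 0.0674 to 0.0799). DREB2C, a factor of heat and drought response, the calmodulin-like gene CML23, the subtilase gene SBT3.5, the tonoplast sugar transporter gene TMT1, the cytokinin response regulator gene ARR15 and the purine transporter gene AZG1 had means of -0.63 to -0.37.

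The 12 highest and 12 lowest annotated probes were mostly those of genes known here only by a locus code. On the positive side these were AT2G29370 (2.76 and 2.06), AT4G08570 (1.89 and 2.32), AT4G31640 (1.91 and 1.71), AT3G14060 (1.57 and 1.88), AT3G19500 (1.6 and 1.49) and AT5G22820 (1.42 and 1.57), beside AT4G14090. Each had a mean of at least 1.5 (adjusted p = 0.00462 to 0.0449). AT2G29370 had a mean of 2.41 and AT4G08570 one of 2.11, and in the other lines they stood at 0.98 to 2.53 and at 1.36 to 3.05, so AK102323 lay within those ranges. For AT4G31640 the mean of 1.81 lay above the 0.31 to 1.12 of the other lines, without a difference past the threshold (adjusted p = 0.277). AT4G08570 lost its call without an array of AK069096, AK073675 or AK065297 (adjusted p = 0.0689 to 0.0761).

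The negative side reached farther. AT2G38240 had -3.82 and -2.36, a mean of -3.09 ± 0.61 (adjusted p = 0.0355), AT1G47980 had -3.27 and -2.65, a mean of -2.96 ± 0.34 (adjusted p = 0.00633), and AT1G07050 had -2.71 and -2.53, a mean of -2.62 ± 0.16 (adjusted p = 0.000812). AT1G07050 had the smallest adjusted p of any annotated probe. AT2G37750 (mean -2.17), AT4G33980 (-1.91), AT1G56680 (-1.88), AT1G24620 (-1.87), AT5G47950 (-1.81), AT1G10400 (-1.77), AT2G42460 (-1.72) and AT1G55220 (-1.72) followed, with adjusted p from 0.00462 to 0.0481. AT2G38240 and AT2G42460 lost their calls without an array of AK069096, AK073675 or AK073210 (adjusted p = 0.059 to 0.0827), and AT5G47950 without one of AK069096 or AK065297 (adjusted p = 0.066 and 0.0779). Among the probes named by rank, those of AT1G07050, AT5G04860 and AT3G15280 kept their call against Col-0 without replicate 1.

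The other lines stood in different places on these loci. AT1G07050 was negative in all 5, at -4.05 to -2.06, and AT4G33980 at -3.26 to -1.15. AT2G38240 had -3.09 in AK102323 and -4.19 in AK073210, while the 4 further lines had 0.04 to 1.5. AT2G37750 had -2.17 and -2.24 in these lines and -0.1 to 0.14 in the 4 others, and AT2G42460 had -1.72 and -2.08, against -0.11 to 0.72. AT1G47980 had -2.96 in AK102323 and -2.26 in AK073675, and -0.68 to 0.85 in the others. The difference of AK102323 from the mean of the other 5 lines did not pass on AT2G38240, AT2G37750, AT2G42460 or AT1G47980 (adjusted p = 0.168, 0.0523, 0.226 and 0.0655).

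Among probes past the threshold, those farthest from 0 on the negative side had no listed gene. On the positive side, probes past the threshold with no listed gene stayed below UF3GT and DFR. Probe 10939 had -3.52 and -3.75, a mean of -3.64 ± 0.37 (adjusted p = 0.00489), and probe 21666 had -4.32 and -2.38, a mean of -3.35 (adjusted p = 0.0192). On the positive side probe 12311 had 2.6 and 2.51, a mean of 2.56 ± 0.11 (adjusted p = 0.000264), the smallest adjusted p of this comparison, and probe 13459 had 2.31 and 2.61. Probe 12311 stood at 2.23 to 2.84 in the other 5 lines. A probe far from 0 need not pass: probe 12309 had 0.49 and 6.21 (adjusted p = 0.22), and among annotated probes the locus AT1G49500 had -2.99 and -3.49 (adjusted p = 0.0673).

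Both sides of the ratio were also read through 25 gene lists, of which 24 had at least 1 measured probe and 13 had at least 1 gene past the threshold. Long lists are more likely to hold such a gene at the 4.05% of all probes, so the number of lists is no result. Where a list lay is described here by medians and counts, with no test of the list. At this share of all probes, few or no genes past the threshold is no result about a list. The lists were chosen with earlier results of these data known, so their counts are no independent evidence. All 6 measured genes of chlorophyll synthesis had negative means, from -0.77 for PORB, a protochlorophyllide reductase gene, and -0.51 for CHLI2, of the magnesium chelatase, to -0.23 for HEME2 and GSA1 of the early tetrapyrrole steps, and 0 of 6 passed (adjusted p = 0.106 to 0.733). Their median was -0.41 in AK102323, and -0.75 when each gene's mean over the other lines is taken. Over all 21494 probes, 10256 had means above 0 and 9957 had means below 0.

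In the photosynthesis list 8 of 10 genes had negative means, down to -0.58 for PSBW and -0.5 for LHCB4.1 and PSB27, and only LHCB4.3 passed, on the positive side. The list's median was -0.38. LHCB4.3 stood at 0.51 beside its relatives LHCB4.1 at -0.5 and LHCB4.2 at -0.35, all subunits of the same minor antenna. RCA, the Rubisco activase gene, had 0.2 and -0.04. GI, the only measured gene of the clock list, had -0.26 and -0.14 and did not pass (adjusted p = 0.706).

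Large lists of growth and defence had medians near 0. Of 49 cell wall probes 2 passed on each side, XTH29 and IRX15-L on the positive and GH9B18 and PMEAMT on the negative side, and the median was -0.07. PMEAMT entered that list by its name alone and is the phospholipid enzyme above. EXPA8, an expansin gene of wall loosening, had -0.78 and -1.24 and did not pass (adjusted p = 0.428). Of 45 UDP-glycosyltransferase genes UGT78D2 passed, with a list median of 0.02, and of 23 detoxification genes GSTU22, with a median of -0.02. Beside the 4.05% of all probes that passed, these counts are no result about either list.

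Of 12 auxin genes only LBD16 passed, and IAA29, a repressor of auxin response, had -1.17 and -1.67 without passing (adjusted p = 0.276). None of the listed 10 salicylate, 3 jasmonate, 3 heat shock, 6 starch and sucrose or 3 iron genes passed. With 4.05% of all probes past the threshold, this is no result for lists so short. Apart from GRX480, the measured members of the salicylate list were WRKY genes, and their tie to salicylate was not checked. Fes1B, which passed, is not on the heat shock list, which holds its relative Fes1A (mean 0.19, adjusted p = 0.473). The defensin gene PDF1.2 had 0.13 and -1.34, and the thionin gene THI2.1 had 0.4 and 0.15. HIS1-3 was the only gene past the threshold among 11 probes of the cell cycle and chromatin list, which 2 genes of histidine synthesis, HISN5B and HISN6B, had entered by name alone.

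Of 18 probes of the senescence and nutrient list 12 had positive means and 0 passed. BETA-VPE, a vacuolar processing protease gene, had 1.56 and 1.81 (adjusted p = 0.117), the nitrate uptake gene NRT2.5 1.21 and 1.49 (adjusted p = 0.22), and the sugar transporter gene SAG29 0.85 and 1.85 (adjusted p = 0.0882). SWEET13 had 1.07 and 1.28 (adjusted p = 0.243). The list's median was 0.09. No probe of the flower and seed list was measured by name, none of 3 root markers passed (medians of -0.02 and -0.24 on replicates 1 and 2), and of 4 leaf markers only LHCB4.3 did.

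**Figure D3:**
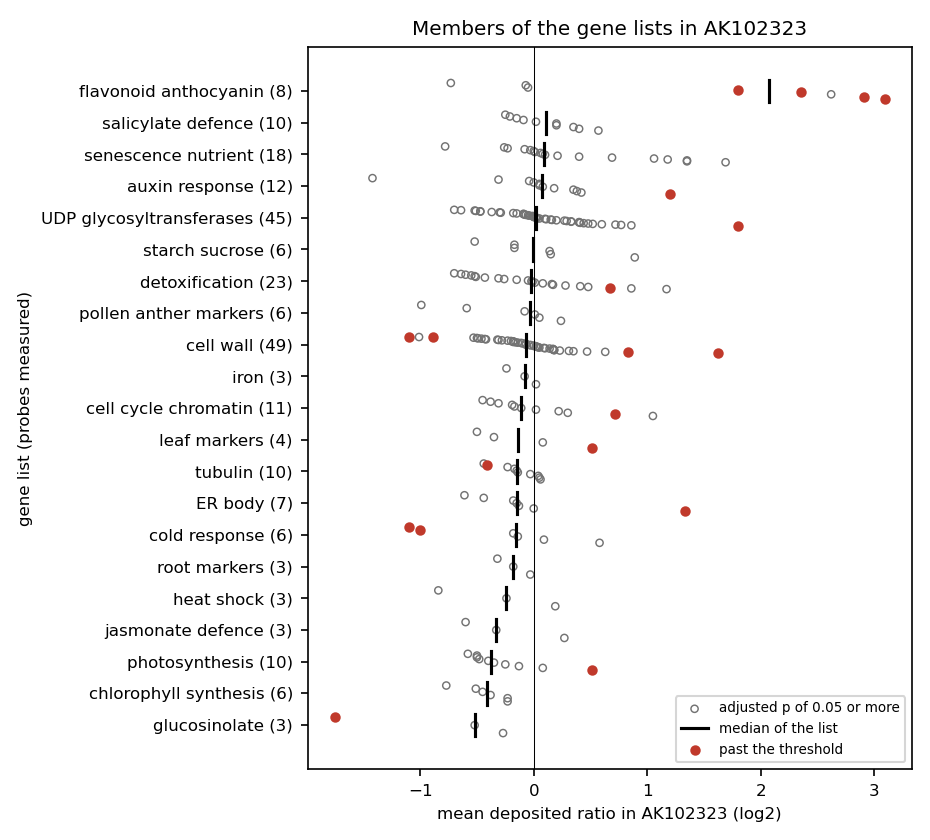
Mean log2 ratio in AK102323 of every measured member of the gene lists with at least 3 probes, 1 row per list with the number of probes in brackets, members past the threshold in red, other members as open circles and the list's median as a black bar. The median of the flavonoid and anthocyanin list stands at 2.07, and those of the other lists lie between -0.52 and 0.11.

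Set against the mean of the other 5 lines, a difference in which a term common to all arrays drops out, AK102323 differed at 17 of 21494 probes (0.0791%), 10 on the positive side (0.0465%) and 7 on the negative side (0.0326%). No gene with a symbol was among them, 7 had a locus code and 10 no listed gene, and 13 differed by a log2 of at least 1 (0.0605%). A difference from a mean of lines can pass while another line lies as far out, so the 17 are not all particular to AK102323. Probes 1097 and 4186 had -1.51 and -1.32 in AK102323, and -1.67 and -1.45 in AK073210. AT2G01300 differed most. It had 0.79 and 1.16 in AK102323 and negative means in all 5 other lines, from -1.67 to -0.22, a difference of 2.05 ± 0.16 (n = 2 and 10 arrays, adjusted p = 0.0103). AK102323 was thus the only line with a positive mean at this locus.

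AT3G14060 had 1.57 and 1.88 in AK102323 and -0.18 to 0.45 in the other lines, a difference of 1.58 ± 0.19 (adjusted p = 0.0457). AT5G04860 had 1.2 and 1.59, and -0.45 to 0.2 in the others, a difference of 1.39 ± 0.12 (adjusted p = 0.0192). AT1G74990 had 0.72 and 0.92, and -0.11 to 0.15 in the others, a difference of 0.81 ± 0.09 (adjusted p = 0.0457). On the negative side AT3G15280 had -1.42 and -1.17, and -0.58 to 0.2 in the others, a difference of -1.18 ± 0.09 (adjusted p = 0.0103). At these 4 loci both AK102323 arrays lay outside the range of the other lines' means.

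Values of exactly 0 enter 3 of the 17 differences. AT2G02610 had -1.08 and -0.7 in AK102323 and exactly 0 on all 10 other arrays (difference -0.89, adjusted p = 0.0439). AT1G47280 was at exactly 0 on both AK102323 arrays and between 0.75 and 1.19 in the other lines (difference -0.92, adjusted p = 0.0479), and 1 probe with no listed gene was at 0 on 8 of the 10 other arrays. The sources used here do not say what an exact 0 stands for in the deposited values, so these differences may set a measured ratio against none.

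The count of 17 depended on single arrays. It was 658 and 101 without AK073112 replicates 1 and 2, 4 and 0 without AK065297 replicates 1 and 2, 8 and 5 without AK073675 replicates 1 and 2, 9 and 10 without AK069096 replicates 1 and 2, 9 without AK073210 replicate 2, and 0 and 30 without AK102323 replicates 1 and 2. AT2G01300 and AT3G15280 missed the threshold without AK102323 replicate 1 (adjusted p = 0.0961 and 0.128) and, narrowly, without AK065297 replicate 2 (adjusted p = 0.0504 for both). AT5G04860 missed it without AK073675 replicate 2, either AK065297 array or AK102323 replicate 1 (adjusted p = 0.0587 to 0.0961). AT3G14060, AT1G74990 and AT2G02610 missed it without most single arrays of the lines other than AK073112 (adjusted p = 0.0515 to 0.208).

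**Figure D4:**
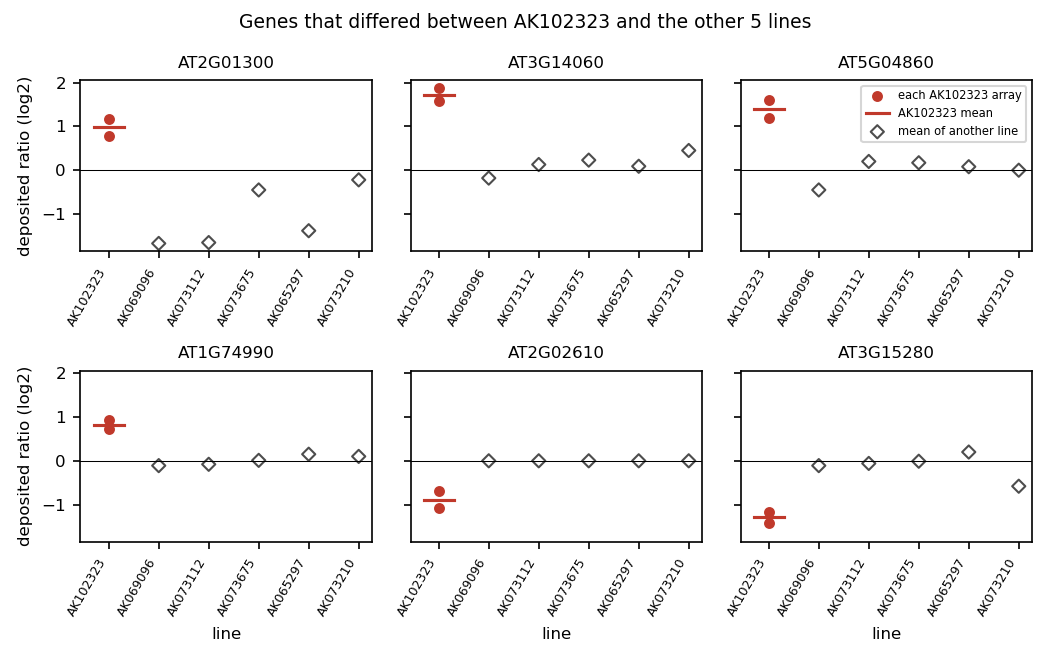
Deposited log2 ratio of the 6 annotated genes that differed between AK102323 and the other 5 lines and are away from 0 on both AK102323 arrays, with each AK102323 array (red points), the AK102323 mean (red bar) and the mean of each other line (open diamonds). AT2G01300 is positive only in AK102323, and AT2G02610 stands at 0 in every other line.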

How the data were processed

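The deposited table holds 1 log ratio of 2 dyes per probe and array for 21500 probes and 12 arrays, made by the authors with Agilent Feature Extraction 7.1.1 per the submitters' processing notes. No log base is stated; the deposited values were taken as log10, which that program writes, and multiplied by 3.3219 to give log2. The sources used here do not give the background correction, the dye normalization or the ratio's direction, and intensities were not analysed here. Groups came from the titles, since all descriptions repeat 1 clone name.

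Genes came from the platform annotation, updated by gene ID to TAIR10.1 symbols: 9335 probes have 1 gene (9317 matched, 18 not), 40 several and 12125 none.

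limma 3.58.1 in R 4.3.3 fitted a mean per line to the 21494 probes that no array lacks (6 residual and 1.88 prior degrees of freedom). The AK102323 mean was tested against 0 and against the mean of the other 5 line means, in both directions (two-sided); p-values were adjusted after Benjamini-Hochberg across all 21494, with a threshold of 0.05. The fit was tested on simulated data. Named genes are the 12 highest and 12 lowest annotated probes that passed with both arrays on 1 side, the same among genes with a symbol, up to 8 and 8 against the other lines, the 4 widest gaps between the arrays, and list members; other values were chosen after they were seen. The comparison, its members and the lists were chosen with earlier results of these data known, and the clock list's CCR1 and CCR2 were matched by locus after a clash of symbols was seen. Alternatives were quantile normalization, a replicate block, each array left out, AK073112 left out, exact zeros as missing, probes averaged per gene, array weights, a robust spread, AK102323 alone and another log base. The number of arrays limits the precision.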

Additional observations from a re-analysis of the deposited data

Results flagged for a closer look

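The test of AK102323 against the mean of the other 5 lines passed for 7 annotated genes, and 6 of them lay away from 0 on both AK102323 arrays; the other, AT1G47280, was at exactly 0 on both (difference -0.92). The differences of the 6 were 2.05 for AT2G01300, 1.58 for AT3G14060, 1.39 for AT5G04860 and 0.81 for AT1G74990 on the positive side, and -0.89 for AT2G02610 and -1.18 for AT3G15280 on the negative side. With 2 arrays per line, no array could be tested as an outlier within its line.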

How the results depend on the processing

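Against Col-0 the count of 870 probes stayed within 1.5 times with the replicate block (671), exact zeros as missing (1025), probes averaged per gene (870) and a robust spread (791). It was 3698 with quantile normalization, 6810 with array weights and 3097 without both AK073112 arrays. All 870 probes were among those 3 sets. With arrays left out in turn it ran from 19 to 3097, the lowest without AK102323 replicate 1 and the highest without either AK073112 array. The fit on the AK102323 arrays alone, with 1 pair to estimate the spread, passed 0 probes by limma, with 7372 at an unadjusted p under 0.05. Of the 870, the fits without either 1 of the AK102323 arrays shared 13 probes, with AT5G04860, AT3G15280, AT4G32340 and AT1G07050 as the annotated ones. Read as log2 rather than log10, 2 of the 262 probes at 1 or more from 0 would remain there. Against the other lines the count of 17 became 248 with quantile normalization, 4 with the replicate block, 56 without both AK073112 arrays, 29 with exact zeros as missing and 563 with array weights, and ran from 0 to 658 with arrays left out. Without AK065297 replicate 2 or AK102323 replicate 1 it was 0 by limma, with 2095 and 1080 probes at an unadjusted p under 0.05.

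Probes were named by rank only with both AK102323 arrays on 1 side, so leaving out an array could not change their side against Col-0. Their unchanged side there is no evidence. None of the 47 probes named by rank changed side under the alternatives run, of which exact zeros as missing covered 44. Against Col-0, the replicate block, exact zeros as missing, array weights, robust spread and AK102323 alone left each mean unchanged. The side was thus fixed in advance under these settings too. The replicate block ended the calls of 7 of them against Col-0, DFR (adjusted p = 0.0648), UGT78D2 (0.0614), TET9, bZIP43, FOLB3, AT4G08570 and AT2G42460, and against the other lines those of AT3G14060 (0.0776), AT5G04860 (0.0516), AT1G74990 (0.0776) and AT2G02610 (0.0729). The robust spread ended that of AT2G42460 (0.0509). Replicate numbers pair no plants in the labels, and the differences between replicates correlated over 0.1 in 2 of 15 pairs of lines (-0.068 to 0.175). Both of these pairs include AK102323, with AK073112 (0.112) and with AK073675 (0.175). Quantile normalization moved the list medians to 2.79 for flavonoids, -0.54 for chlorophyll synthesis, -0.5 for photosynthesis, -0.22 for cold response, 0.1 for auxin, -0.15 for cell cycle, -0.2 for tubulin, 0.37 for cuticle and 2.2 for light signalling.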
